A study of Mus musculus with 33 samples.

Results

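The contacts of the *Tcra*–*Tcrd* enhancer Eα were compared between DP thymocytes and liver of C57BL/6 mice, with 3 libraries for the thymocytes and 2 for liver, which are 5 of the 33 samples of the series. The libraries were taken by their labels: all 5 carry the genotype CBE+/+Rag1-/-, have an intact CTCF-binding element (CBE) next to the enhancer, and were made with the same bait, the primer placed beside Eα. 3C-HTGTS cuts fixed chromatin with MboI, ligates the ends that lie close together, and reads outward from a biotinylated bait primer, so that a read that runs into 2 more fragments reports a multiway contact of the bait. Cells were crosslinked in 1% formaldehyde and their chromatin was digested by 200 U of MboI. DP thymocytes had been induced in the *Rag1*-/- mice, aged 3 weeks, by injection of an anti-CD3 antibody, a treatment that moves *Rag1*-/- thymocytes to the DP stage without recombination of the locus, and thymi were taken 10 days later. The labels name the second tissue as liver and give no treatment or sort for it, so the liver libraries stand for all cells of that tissue. No RNA was measured in these libraries, and the cell types were taken from the labels without a check of marker genes. Nothing in the labels says whether the replicates came from separate animals, so the spread given here is the spread between libraries.

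T cell receptor α and δ chains are assembled from segments of 1 shared locus, in which the δ segments lie inside the α locus, between the V segments and the long array of Jα segments. Eα, downstream of the constant gene *Trac*, drives transcription and recombination of the Jα array in DP thymocytes. Between most V segments and the D segments lie the INT elements, a pair of CTCF sites, and ahead of the Jα array lies the promoter TEAp. Downstream of Eα lies a gene-rich flank that starts with *Dad1*, the gene of a subunit of the oligosaccharyltransferase complex. Loop extrusion by cohesin is halted at CTCF sites in an orientation-dependent way, and it brings V, INT and J sequences toward each other before recombination. T cell receptor genes are not transcribed or rearranged in hepatocytes.

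The bait and the V region were located in the mm10 (GRCm38) sequence of chromosome 14. The bait primer matched 1 place, 54226081 to 54226100 on the minus strand, in an MboI fragment of 1268 bp at chr14:54225987-54227254. The primer reads toward the left end of that fragment, the end at which captured fragments are joined. These are the first 300 bases of the fragment on the plus strand, intergenic between *Trac* and *Dad1*, shown because every contact below starts here. Capitals mark the MboI site.

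Eα bait fragment, chr14:54225987-54226286, plus strand: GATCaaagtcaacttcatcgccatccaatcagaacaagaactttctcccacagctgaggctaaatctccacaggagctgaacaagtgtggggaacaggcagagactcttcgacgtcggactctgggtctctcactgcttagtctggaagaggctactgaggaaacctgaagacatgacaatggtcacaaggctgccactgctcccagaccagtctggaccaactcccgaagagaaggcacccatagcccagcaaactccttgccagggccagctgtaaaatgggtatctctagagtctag

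The V segments from *Trav17* to *Trdv2-2*, toward the J side of the V region, hold several CTCF sites. As given below, these segments took a higher share of the Eα contacts in DP thymocytes than in liver, as did the other V, INT, δ and Jα intervals. The letters AGGNGGC with CC 3 bases before them, a shortened form of the CTCF motif, were searched on both strands of the covered stretch, where they matched 103 times in 92 of the 522 bins of 5 kb (17.6%). In the *Trav17* to *Trdv2-2* interval they matched 6 times in 6 of 32 bins (18.8%), each time on the plus strand, the strand that points toward Eα. The nearest match upstream of that interval, chr14:53798948-53798959, lay on the minus strand. The paper also reports a CTCF site upstream of *Trav17* that points away from Eα. Each match is named by the V gene in its bin or after it and shown with 12 bases on either side, the matched letters in capitals, 5′ to 3′ on the plus strand.

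*Trav17*, chr14:53806390-53806425: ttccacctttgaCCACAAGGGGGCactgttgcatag
Upstream of *Trav18*, chr14:53823373-53823408: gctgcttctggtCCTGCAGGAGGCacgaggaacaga
*Trav18*, chr14:53834593-53834628: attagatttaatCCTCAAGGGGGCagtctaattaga
*Trav21-dv12*, chr14:53875352-53875387: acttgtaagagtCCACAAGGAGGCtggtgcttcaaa
*Trdv1*, chr14:53881430-53881465: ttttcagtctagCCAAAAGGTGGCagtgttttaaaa
Upstream of *Trdv2-2*, chr14:53955303-53955338: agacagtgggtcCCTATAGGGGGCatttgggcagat

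A match is a description of the letters and was not compared with CTCF binding here. The search found 0 matches in the 2 bins from TEAp to *Traj56*, though the paper places a CTCF site at TEAp. It also found none in the window that holds the INT2 primer (chr14:54055001-54070000), and the paper describes INT2 as a CTCF site. Known sites can thus be missed.

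The counts cover pairs of 5 kb bins from chr14:52420001-55030000, that is 1805 kb upstream and 800 kb downstream of the bin of the bait. Upstream means the V side throughout. DP replicates 1 to 3 held 60028, 23218 and 26435 reads with both fragments in this stretch, and the liver replicates 2207 and 1040. A count of 3 fragments, the limit that a count of 0 allows, is 0.0680% of the fragments of liver replicate 1 and 0.144% of those of liver replicate 2. This limit takes each fragment as drawn alone. Both fragments of a read often fell in 1 bin, so limits on fragment shares may be too low and fold bounds from them too high. Over 131 windows of 20 kb, fragment shares correlated with Pearson coefficients of 0.990 to 0.996 among the DP libraries and 0.969 between the liver libraries, and of 0.609 to 0.678 across the tissues (neighbouring windows share contacts, so no p is given). Of the 10 fullest bins, 8 were shared by each pair of DP libraries and by the liver pair, and 3 or 4 by a DP and a liver library. In the DP libraries each distinct pair of MboI fragments was read 3.59 to 6.07 times on average, and reads are not corrected for such copies, so intervals and limits cover counting error alone.

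Eα captured the V, INT, δ and Jα side in DP thymocytes, and the gene-rich downstream side in liver. Of the fragments outside the bait bin, 74.8%, 76.8% and 76.0% lay upstream in DP replicates 1 to 3, against 27.7% and 30.1% in liver replicates 1 and 2. The means were 75.9% ± 1.00 (SD, n = 3) and 28.9% ± 1.72 (SD, n = 2). With 3 libraries against 2, the smallest p that the exact two-sided permutation test allows is 0.1, and this comparison reached it. Each share is a part of 100%, so that a gain on one side is a loss on the other, and the number of contacts per cell was not measured.

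Fragments were summed over 9 intervals along the locus and its downstream flank, and the groups did not overlap in any of them. For comparison, 66.5% of the 343 bins of 5 kb with 10 or more fragments also had groups that did not overlap. The distal and central V interval, from *Trav1* to the bin before *Trav17*, took 5.61% ± 0.0586 of the fragments in DP thymocytes and 0.469% ± 0.459 in liver, where it rested on 35 and 3 fragments. The proximal V interval took 12.1%, 11.1% and 11.6% in DP thymocytes against 1.65% and 1.83% in liver, a ratio of means of 6.66. The INT interval runs from the bin after *Trdv2-2* to the bin before *Trdd1* and also contains *Trav23* and *Trdv4*. It took 18.0%, 17.6% and 18.4% against 3.74% and 6.39%. The δ interval took 6.93% ± 0.538 against 1.62% ± 0.431.

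Nearer to the enhancer the tissues came closer, though not yet in the proximal Jα interval. The 2 bins from TEAp to *Traj56*, the proximal Jα interval, took 2.07%, 2.56% and 2.4% in DP thymocytes. They took 0.295% in liver replicate 1 and no fragment in liver replicate 2, where a count of 0 allows up to 0.144%. The ratio of means was 15.9, the highest of these intervals, on 13 fragments of liver replicate 1. The distal Jα interval, from there to *Trac*, was the fullest upstream interval of both tissues, with 25.6% ± 0.690 and 16.1% ± 0.329, a ratio of 1.59. The bins from *Trac* to the bait took 6.13%, 6.72% and 5.76% in DP thymocytes against 4.71% and 3.99% in liver. That order turned when pairs within a single bin were left out, with 6.77% in DP thymocytes and 7.28% in liver, and when each distinct pair of bins was counted once, with a difference of -1.17 percentage points.

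Downstream the order was opposite. The first 100 kb after the bait bin took 6.99%, 6.61% and 6.42% of the fragments in DP thymocytes against 16.3% and 17% in liver. The next 700 kb took 17.9%, 16.1% and 17.2% in DP thymocytes against 55.3% and 52.4% in liver, so that in each liver library over 50% of the fragments lay there. All of these comparisons reached p = 0.1 in the exact permutation test (0.111 after adjustment over 10 intervals, the tenth being 1 bin upstream of *Trav1*).

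**Figure D1:**
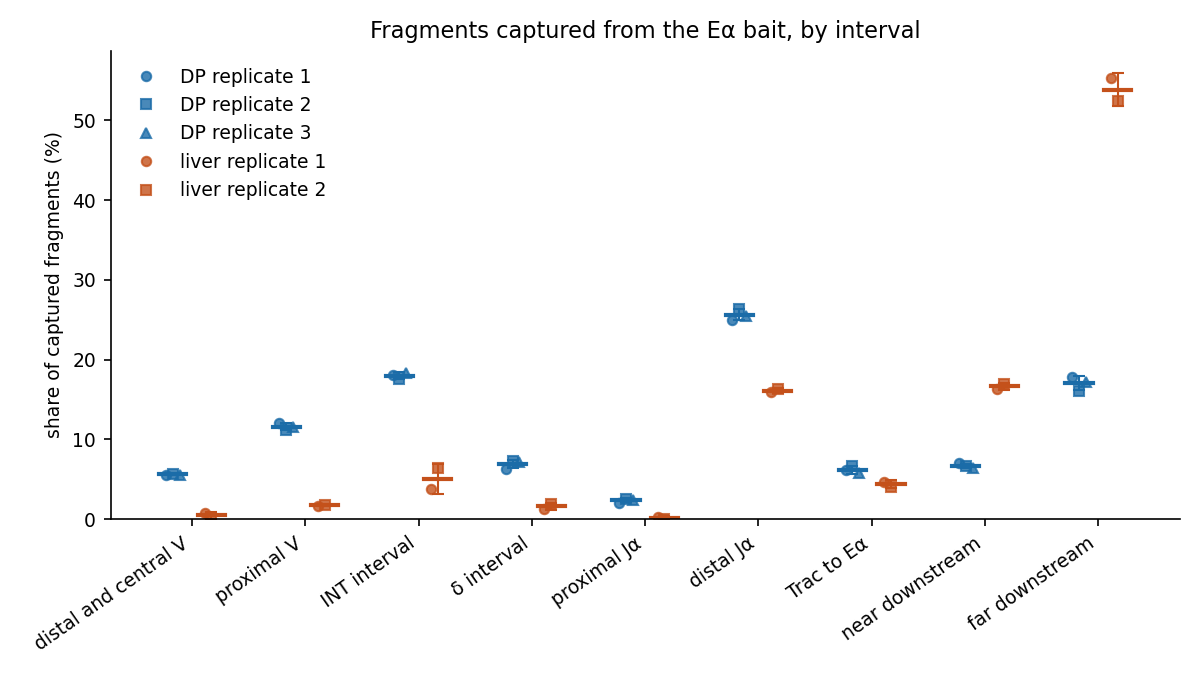
Share of captured fragments (%) in each interval, from the V end on the left to the downstream flank on the right, for 3 DP libraries (blue) and 2 liver libraries (orange), with bars at the mean and its SD. DP libraries lie above liver in every interval from the distal and central V to Eα, and liver lies above DP at 16.6% against 6.67% and 53.9% against 17.1% in the near and far downstream intervals.

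Among the V segments, which supply the variable part of the chain, contacts in DP thymocytes were uneven from 1 bin to the next. The bin of *Trav21* (*Trav21-dv12*) took 1.44%, 1.80% and 1.53% of the fragments in the DP libraries and 0.136% and 0.385% in liver. The bin of *Trav18* took 1.02%, 1.09% and 1.08% against 0.0453% and 0.337%. *Trav19*, without a match of the motif in its bin, took 0.462%, 0.310% and 0.327% against 0.0453% and 0.0962%. The DP libraries were above the liver libraries at each of these 3 genes.

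At *Trav17* the DP libraries held 0.277%, 0.381% and 0.333%, and at *Trdv1* 0.400%, 0.556% and 0.543%, while no fragment fell in either bin in liver. Against the limit of 3 fragments over both liver libraries (0.0462%), *Trav17* was at least 7.15-fold and *Trdv1* at least 10.8-fold higher in DP thymocytes. These bounds take each fragment as drawn alone and could be lower if reads were counted. *Trdv2-2*, whose own bin also holds no motif match, took 0.732%, 0.870% and 0.755% against 0.0227% and 0.0481%, which are 1 fragment in each liver library. The bin before it, which holds the match, took 0.724%, 0.523% and 0.660% in the DP libraries. *Trav23*, in the INT interval, took 0.984% ± 0.0693 in DP thymocytes, and in liver no fragment in replicate 1 and 0.385% in replicate 2.

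In the proximal V interval, the 6 bins with a motif match, which are 18.8% of its bins, held 33.7%, 40.9% and 38.4% of the interval's fragments in the DP libraries. In liver they held 16 of 73 fragments (21.9%) in replicate 1 and 16 of 38 (42.1%) in replicate 2. The bins of *Trav18* and *Trav21* made up most of this share in DP thymocytes, and that of the match upstream of *Trav18* was low, at 0.207%, 0.194% and 0.306%. In the far downstream interval, where 27.9% of bins held a match, those bins took 21.2% to 24.3% of the interval's fragments in DP thymocytes and 25.5% and 29.1% in liver.

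The INT window, the bin of the INT2 primer and the 2 bins before it (chr14:54055001-54070000), was the fullest of the elements upstream of the Jα array. It took 6.40%, 6.98% and 6.69% of the fragments in DP thymocytes against 0.725% and 0.913% in liver, a ratio of 8.16. INT separates most V segments from the D segments of the δ chain and the Jα segments, while *Trdv4* and *Trdv5* lie on its J side. The 20 kb window beside it on the J side (chr14:54080001-54100000) differed from it: 1.74%, 2.03% and 2.22% in DP thymocytes against 1.68% and 3.08% in liver, with groups that overlapped. That window was the fullest of the INT interval in both liver libraries.

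The δ genes and the start of the Jα array followed the INT window in direction. *Trdd2*, a D segment of the δ chain, took 1.25%, 1.53% and 1.40% against 0.204% and 0.288%, and the next bin 2.10%, 2.82% and 2.45% against 0.612% and 0.577%. The bins of *Trdc*, the δ constant gene, and of *Trdv5*, which lies inverted beside it, took 0.810% ± 0.0783 in DP thymocytes, 0.136% in liver replicate 1 and no fragment in liver replicate 2. TEAp, the promoter from which germline transcripts run into the Jα array, took 0.437%, 0.485% and 0.550% in its bin, and liver had 2 fragments there, both in replicate 1. *Traj61*, *Traj58* and *Traj56* lie in the same bin, which took 1.63%, 2.07% and 1.85% in DP thymocytes, 0.249% in liver replicate 1 and none in liver replicate 2.

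Along the Jα array the difference became smaller toward the enhancer. *Traj49* took 3.90%, 4.54% and 4.30% in DP thymocytes against 0.566% and 1.15% in liver, a ratio of 4.94. At *Traj38* the values were 1.42%, 1.2% and 1.30% against 0.498% and 0.0962%, a ratio of 4.37. At *Traj18* they were 1.56%, 1.72% and 1.51% against 0.816% and 1.01%, a ratio of 1.75, and at *Trac* 4.82%, 4.60% and 4.32% against 3.74% and 3.27%, a ratio of 1.31. The groups did not overlap at these 4 genes, though at *Traj18* the order turned when each distinct pair of bins was counted once (1.06% and 1.30%), and at *Trac* under that setting (2.06% and 3.24%) and without pairs within a single bin (4.73% and 5.39%).

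The bin at chr14:54215001-54220000, with *Traj4* to *Traj2*, was the fullest bin of liver replicates 1 and 2, at 5.26% and 7.31%, and took 3.77%, 3.84% and 3.74% in DP thymocytes. The 20 kb window that ends there took 11%, 11% and 10.7% of the fragments in DP thymocytes against 12.4% and 13.4% in liver. Thus the enhancer's close neighbourhood was captured in both tissues, and the tissues parted about 25 kb upstream of it.

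Downstream of Eα, contacts were spread over genes that are not part of the receptor locus, and each of the 4 genes measured took a higher share of all fragments in liver. *Dad1*, next to the enhancer, took 3.33%, 3.23% and 2.91% in DP thymocytes against 6.48% and 6.88% in liver. *Abhd4*, a lipid hydrolase gene that shares its promoter region with *Dad1*, took 2.03%, 1.88% and 1.74% against 3.85% and 2.69%. *Oxa1l*, which encodes an insertase of the mitochondrial inner membrane, took 0.660%, 0.476% and 0.728% against 1.02% and 1.25%.

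*Slc7a7*, a gene for a cationic amino acid transporter chain, covers 11 bins. It took 2.66%, 2.63% and 2.69% of the fragments in the DP libraries and 16.4% and 13.8% in the liver libraries, a ratio of 5.68 toward liver. Of the fragments on the downstream side alone, *Slc7a7* held 10.7%, 11.6% and 11.4% in DP thymocytes against 22.9% and 19.96% in liver. The order of the other 3 genes turned on this denominator: *Dad1* held 13.3% ± 0.977 of the downstream fragments in DP thymocytes and 9.48% ± 0.610 in liver, *Abhd4* 7.95% ± 0.502 and 4.63% ± 1.06, and *Oxa1l* 2.61% ± 0.492 and 1.61% ± 0.267. The near downstream interval turned with them, at 28.1%, 29.1% and 27.1% against 22.7% and 24.5%.

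Fragments were then counted in 131 windows of 20 kb, and 108 of them with 10 or more fragments over the 5 libraries were tested with edgeR's quasi-likelihood test. At a Benjamini-Hochberg adjusted p under 0.05, 64 windows differed (59.3% of those tested), of which 35 were higher in DP thymocytes (32.4%) and 29 in liver (26.9%). TMM scaling, which assumes that most windows do not change, shifted the log2 ratios by 0.88 and gave 41 windows higher in DP thymocytes and 16 in liver.

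The called windows were arranged by side. All 8 windows of the proximal V interval, 6 of 7 of the INT interval, both of the δ interval and the proximal Jα window were higher in DP thymocytes, as were 16 of 46 tested windows of the distal and central V interval. Of the 3 distal Jα windows, 2 were higher in DP thymocytes and the one nearest to *Trac* in liver, at a log2 ratio of -0.24. Downstream, 4 of 5 near windows and 24 of 36 far windows were higher in liver, and none was higher in DP thymocytes. The median log2 ratio of DP over liver was 2.86 over the proximal V windows, 2.87 over the INT windows, -1.65 over the near downstream and -1.57 over the far downstream windows, and -0.64 over the 78 tested windows with fragments in both groups.

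The 5 windows with the highest fitted ratio among those called in DP thymocytes lay in the distal and central V interval, between chr14:53640001 and 53760000. No liver fragment was found in any of them, so their ratios have a lower bound alone and they are not known to be the largest changes. That bound takes each fragment as drawn alone and could be lower if reads were counted. The window of *Trav16* and *Trav13-4-dv7* (chr14:53740001-53760000) took 0.534%, 0.541% and 0.492% in DP thymocytes, at least 11.3-fold above the limit over both liver libraries, with an adjusted p of 0.000221. The other 4 took 0.103% to 0.366% per DP library and were at least 3.52-fold to 6.89-fold higher, and the window of *Trav3-3* and *Trav9-4* among them missed the threshold without liver replicate 1 (adjusted p 0.0509). Among called windows with a liver fragment, chosen after their values were seen, that of *Trav17* had the highest log2 ratio, 5.46 (SE 1.21), with 1.37%, 1.43% and 1.24% in DP thymocytes against 0.0453% in liver replicate 1 and no fragment in liver replicate 2.

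The 5 with the lowest ratio lay downstream. The window chr14:54400001-54420000 in *Slc7a7* took 1.14%, 1.07% and 0.876% in DP thymocytes against 7.88% and 6.63% in liver (log2 ratio -2.82, SE 0.50, adjusted p 9.8e-07), and it was the fullest window of the far downstream interval in both liver libraries. At the far end the windows of *Myh6* and *Myh7*, the cardiac myosin heavy chains, took 0.0132% to 0.0541% in the DP libraries and 0.295% to 0.408% in the liver libraries, on 7 to 18 liver fragments per library and window. The window of *Slc7a8*, another amino acid transporter gene, took 0.0948% to 0.130% against 0.453% and 1.30%, and that of *Slc22a17* and *Efs* 0.0303% to 0.268% against 1.09% and 1.01%. Without pairs within a single bin, the *Myh6*, *Myh6*–*Myh7* and *Slc22a17*–*Efs* windows no longer passed the threshold (adjusted p 0.0654, 0.0654 and 0.102), and the last of them also missed it without DP replicate 2 (0.0598).

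**Figure D2:**
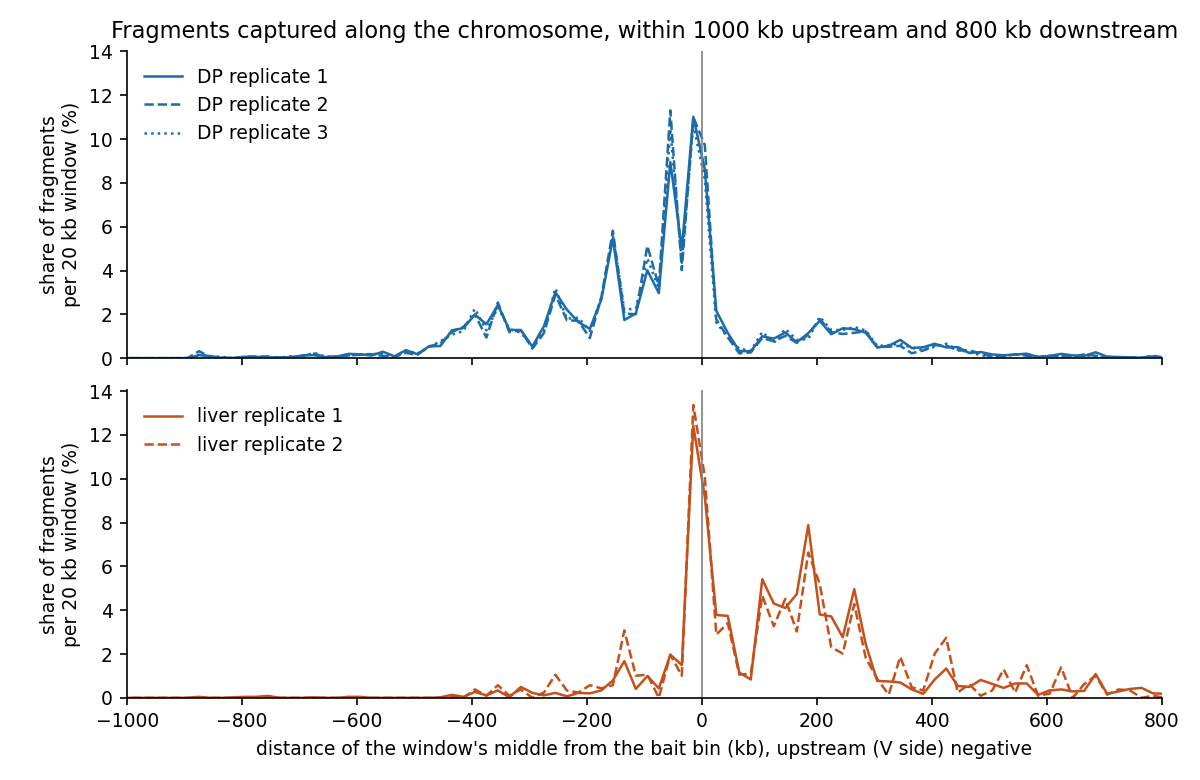
Share of fragments (%) per 20 kb window by distance from the bait bin (kb), upstream negative, with a line for each DP library (top) and each liver library (bottom). Peaks between the bait and about 450 kb upstream recur in the 3 DP libraries. The liver libraries are low over most of that stretch, though not next to the bait or beside the INT window on its J side. They are high between 100 and 300 kb downstream.

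The 2 sides can be set against each other at the same distance from the bait, since the files reach 800 kb downstream (a comparison added after the data were seen). Within 25 kb the V side held 79.3%, 78.3% and 80.1% of the fragments in DP thymocytes against 68.8% and 65.7% in liver. From 25 to 100 kb it held 87.3%, 90.7% and 88.7% against 34.3% and 31.2%. From 100 to 500 kb it held 68.9%, 70.2% and 69.3% against 10.8% and 17.4%. Beyond 500 kb it held 52.1%, 56.7% and 60.8% against 4.36% and 0%, on 298 and 158 liver fragments. The tissues differed by 12 percentage points within 25 kb and by 54.3 to 56.1 points in the other 3 classes, each at p = 0.1 in the exact permutation test.

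Thus in liver the downstream side held the larger part of the fragments beyond 25 kb, and within 25 kb the V side did so in both tissues. The distance that held 50% of the upstream fragments was 100 to 110 kb in the DP libraries and 20 kb in each liver library, and 90% lay within 395 kb in each DP library and within 225 and 240 kb in the liver libraries. Downstream, 50% lay within 200 to 205 kb in the DP libraries and 185 to 190 kb in liver, and 90% within 420 to 445 kb and 490 to 520 kb, so that the 90% distance was longer in both liver libraries.

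**Figure D3:**
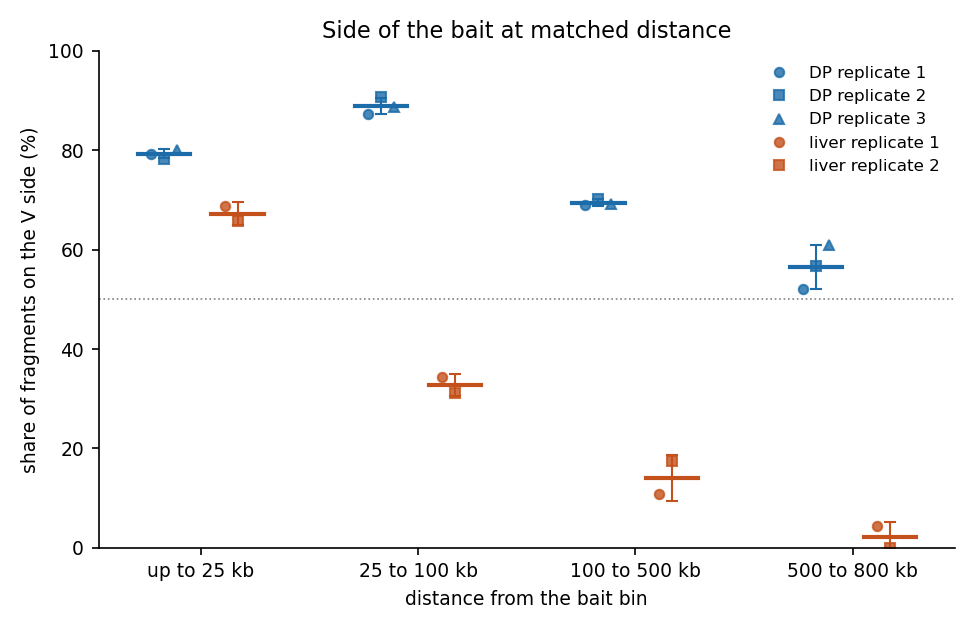
Share of fragments on the V side of the bait (%) among fragments at the same distance on either side, for 3 DP libraries (blue) and 2 liver libraries (orange), with bars at the mean and its SD and a dotted line at 50%. The DP libraries stay above 50% in all 4 distance classes, and the liver libraries are above it within 25 kb alone.

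Relative to the fragments between *Trav1* and the bait bin, the distribution inside the locus also differed. In liver 55.9% and 53.4% of these fragments lay in the distal Jα interval, against 33.2%, 34.1% and 33.4% in DP thymocytes. The bins from *Trac* to the bait held 16.6% and 13.0% against 8.15%, 8.69% and 7.54%. The proximal V interval held 5.83% and 5.97% in liver against 16.1%, 14.4% and 15.2%. The INT interval came closer, with 13.2% and 20.9% in liver against 24.0%, 22.7% and 24.1%, where the liver libraries differed from each other by more than the nearer of them differed from DP thymocytes.

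Both fragments of a read show what met at the enhancer in the same cell. In DP thymocytes 65.8%, 69.2% and 67.3% of the pairs had both fragments between *Trav1* and the bait, and in liver 21.9% and 26% did. Pairs with no fragment between *Trav17* and the bait made up 18.5% ± 0.466 in DP thymocytes and 65.5% ± 0.787 in liver. Pairs with 1 fragment there made up 22.9%, 20.2% and 22.2% against 12.8% and 9.23%. Each of these differences reached p = 0.1 in the exact permutation test, and the last fell to 28.2% against 26.4% (p = 0.3) without pairs within a single bin.

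Pairs that joined 2 different intervals upstream made up 32.5%, 32.5% and 34.0% of the pairs in DP thymocytes and 4.03% and 4.90% in liver, which are 89 and 51 reads. Proximal V with INT took 3.72%, 3.87% and 4.31% in DP thymocytes and rested on 1 read in each liver library. INT with δ took 2.94%, 2.80% and 3.75%, against 1 liver read. Proximal V with distal Jα took 2.71%, 2.66% and 3.52%, against 2 liver reads, both in replicate 1. Proximal V with proximal Jα, the segments with which *Tcra* recombination starts, took 0.400%, 0.418% and 0.450%, without a liver read. Here and below, the shares of pairs of upstream intervals were not set against the product of the fragment shares of both intervals. Whether these intervals met more often than their single shares give was not tested.

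Several such pairs had no liver read at all: distal and central V with proximal V (1.46% ± 0.158 in DP thymocytes), distal and central V with distal Jα (1.64% ± 0.113), proximal with distal Jα (1.5% ± 0.154) and INT with the bins from *Trac* to the bait (1.43% ± 0.0254). Against the limit of 3 reads over both liver libraries, these were at least 15.7-fold, 17.8-fold, 16.3-fold and 15.4-fold higher in DP thymocytes. INT with distal Jα was the most frequent pair of different upstream intervals in DP thymocytes, at 4.78%, 4.99% and 4.67%, and it was also seen in liver, at 1.40% and 1.44%.

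Of 46 interval pairs with 10 or more reads, 33 passed edgeR's test (71.7%), with 30 higher in DP thymocytes (65.2%) and 3 in liver (6.52%). Among pairs of different upstream intervals, 19 of 21 were higher in DP thymocytes and none in liver. Calls of the bins from *Trac* to the bait with δ and with proximal Jα did not hold with each library left out: the first missed the threshold without DP replicate 3 (adjusted p 0.0582), liver replicate 1 (0.0586) or liver replicate 2 (0.0679), and the second without liver replicate 1 (0.114). The 2 that did not pass were distal and central V with proximal Jα, without a liver read, and distal Jα with the bins from *Trac* to the bait (3.34%, 3.75% and 3.33% against 1.95% and 2.98%). The 3 higher in liver were near with near downstream (2.73% ± 0.178 against 12.4% ± 2.30), near with far downstream (1.98% ± 0.294 against 5.02% ± 2.89) and far with far downstream (10.2% ± 0.408 against 47.5% ± 0.275). Near with far downstream missed the threshold without liver replicate 1 (adjusted p 0.103) or DP replicate 3 (0.0511). With TMM scaling, 24 pairs were higher in DP thymocytes and 8 in liver, after a shift of the log2 ratios by -0.77.

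Pairs across the bait have a fragment on each side. Those of an upstream and a downstream interval made up 18.7%, 16.2% and 18.2% in DP thymocytes against 12.9% and 9.33% in liver, and 6 of 14 passed the test, all higher in DP thymocytes. The 3 of these with near downstream missed the threshold without pairs within a single bin, at adjusted p of 0.376 with δ, 0.102 with distal and central V and 0.0690 with proximal V. Leaving out 1 library also ended them: with δ without liver replicate 1 (0.182) or 2 (0.128), with distal and central V without liver replicate 2 (0.0977) or DP replicate 1 (0.0675) or 3 (0.0582), and with proximal V without liver replicate 1 (0.0781). Distal Jα with far downstream took 3.79%, 3.47% and 3.51% against 5.17% and 3.17%, with groups that overlapped. A pair within a single bin cannot lie across the bait, and such pairs were more frequent in liver. Among pairs in 2 different bins outside the bait bin, the share across the bait was lower in DP thymocytes, at 23.0%, 20.8% and 22.9% against 26.2% and 24.9% (exact permutation p = 0.1), and it was higher by 3.37 percentage points with each distinct pair of bins counted once and by 3.84 without pairs within 10 kb of the bait. In these pairs the 2 fragments lay on different sides 0.634 ± 0.0152 times as often in DP thymocytes as the product of the side shares gives, and 0.610 ± 0.0878 times in liver, with groups that overlapped (exact permutation p = 0.8).

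**Figure D4:**
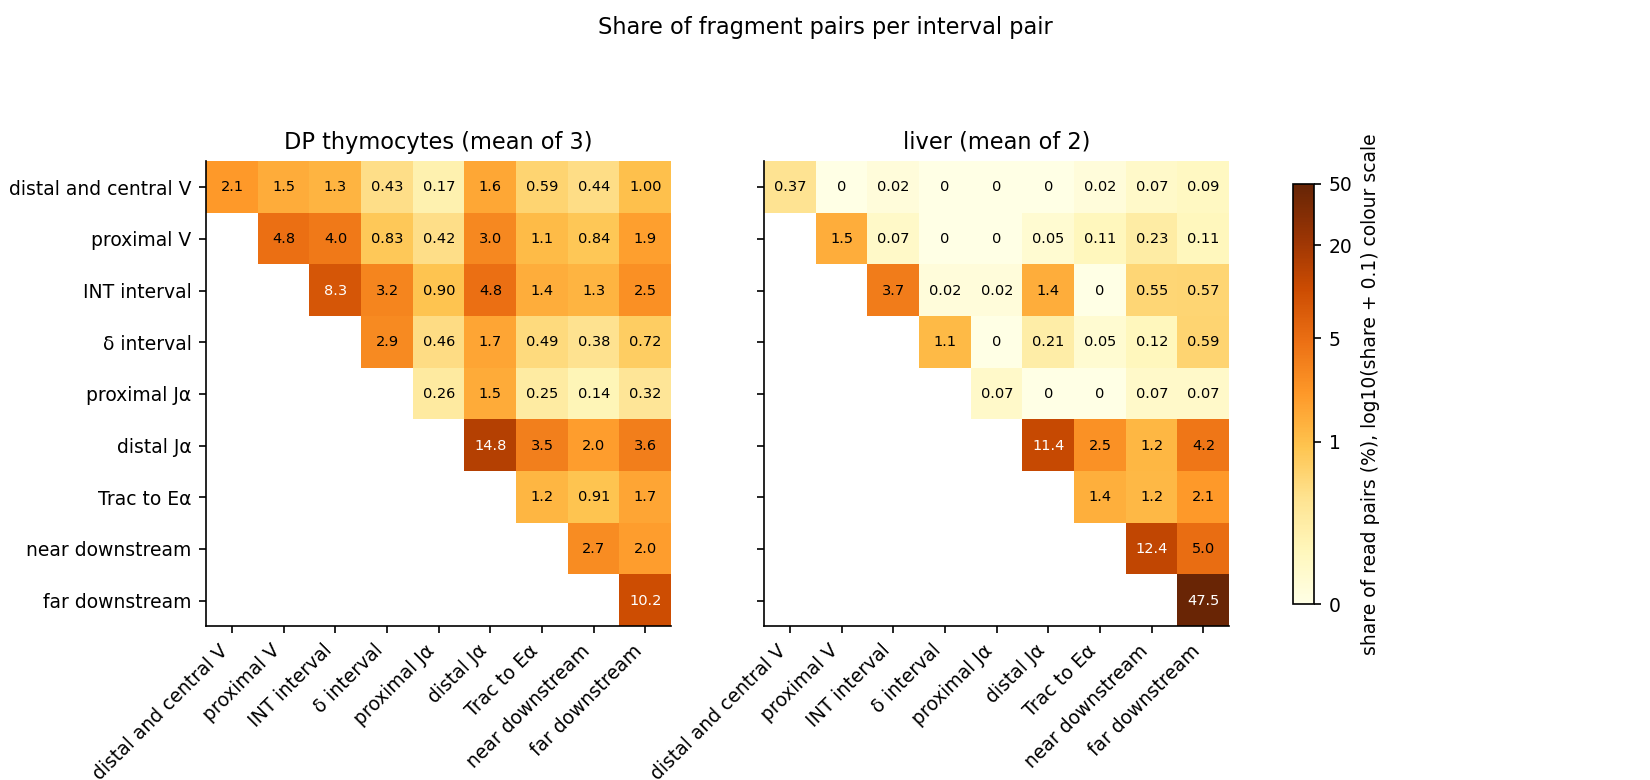
Mean share of read pairs (%) for each pair of intervals in DP thymocytes (left, 3 libraries) and liver (right, 2 libraries), with the value written in each cell and colour on a log10(share + 0.1) scale. In liver 47.5% of pairs lie within the far downstream interval and most cells between different V, INT and δ intervals are at or near 0, while in DP thymocytes these cells hold up to 3.96%.

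Both fragments of a pair lay farther apart in DP thymocytes. The share of pairs within a single bin was 20.5%, 25.9% and 22.2% in DP thymocytes against 54.1% and 63.1% in liver. Pairs 100 to 500 kb apart made up 33.7%, 30.5% and 33.5% against 19.0% and 12.2%, and pairs over 500 kb apart 6.22%, 5.02% and 6.24% against 2.67% and 1.83%. Pairs up to 25 kb apart in different bins took 21.0% ± 0.656 against 14.2% ± 0.399, and this order turned when pairs within a single bin were left out of the total (27.2% against 34.8%). The median distance of pairs in different bins was 105, 95 and 110 kb in DP thymocytes against 90 and 45 kb in liver.

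Contacts were also spread over more bin pairs in DP thymocytes at equal depth. Among 1040 pairs, the depth of liver replicate 2, the expected number of distinct bin pairs was 723, 652 and 706 in the DP libraries, 406 in liver replicate 1 and 249 in liver replicate 2. The expected number of bins was 236, 224 and 228 against 194 and 155. Both differences reached p = 0.1 in the exact permutation test. The share in the 10 fullest bins was near in both tissues, at 29.4%, 32.8% and 30.4% against 34.0% and 33.4% (exact permutation p = 0.2), and it turned without pairs within a single bin (29.3% and 28.7%). How often each liver fragment pair was copied was not analysed here, and its part in the lower numbers of liver was not tested.

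**Figure D5:**
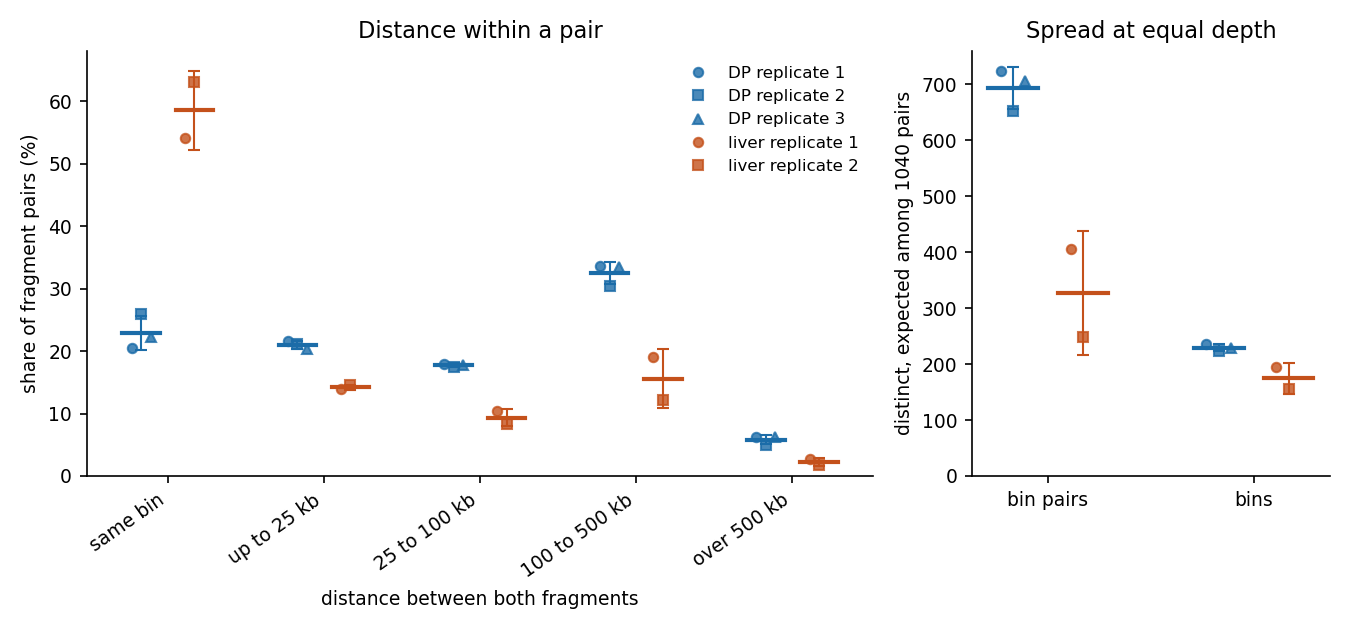
Left, share of fragment pairs (%) by the distance between both fragments, and right, the expected number of distinct bin pairs and bins among 1040 pairs, for 3 DP libraries (blue) and 2 liver libraries (orange), with bars at the mean and its SD. Pairs within a single bin make up 22.9% in DP thymocytes and 58.6% in liver, and the DP libraries lie above liver in every other distance class and in both numbers on the right.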

How the data were processed

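Per the labels, MboI-digested 3C libraries of DP thymocytes and liver were sequenced from the Eα bait. After trimming and merging, the authors aligned reads to mm10 (fastp 0.20.0, cutadapt 1.18, Bowtie2 2.4.5, SAMtools 1.9, bedtools 2.29.2 and DESeq2 1.34.0 are named in the submitters' notes), removed self-ligated and off-target products, and kept the first 2 fragments after the bait. The deposited counts are reads per pair of 5 kb bins, not normalized, not corrected for copies and limited to chr14:52420001-55030000, so the planned chromosome-wide totals and distances over 5 Mb could not be formed. The deposited scaled values were not used. DP read lists, used for copies per fragment pair, gave the same counts in all 4977, 3348 and 3925 bin pairs.

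Bins were summed into intervals and elements placed by gencode vM21 genes and by the primers matched to GRCm38. A bin's edges follow fragment ends, so a fragment may start in the bin before. Element values are the bins that the gene overlaps. Values are means ± SD over libraries. An SE of a log2 ratio was worked back from its edgeR p by the normal distribution and is not an SE of the fit. Shares were compared with exact two-sided permutation tests (10 label assignments), and counts per window or interval pair with edgeR 4.0.16 (R 4.3.3, quasi-likelihood, library size equal to all fragments or pairs, 10 or more in sum). On simulated counts of DP thymocytes against liver over 102 windows, 11 of 19 changed 4-fold and 11 of 17 changed 8-fold were called, with 0 false calls. That simulation raised or lowered 36 windows and drew each window alone, whereas the real shares depend on each other. It does not give the rate of false calls in these data. Named windows were, in each direction, the 5 with the largest fitted ratio among those called without overlap, whether or not liver had fragments there. Intervals, elements and tests were chosen with earlier results of these data known. Alternatives were distinct bin pairs, pairs within a bin or within 10 kb of the bait left out, fragments within 500 kb, windows of 10 and 50 kb, TMM, DESeq2, no filter, depth of 100 pairs, each library left out and a replicate block. The measures at matched distance, of the side of the bait, and shares of the locus or the downstream side alone were added after the data were seen. Counting limits use 3 counts. The other baits and genotypes were not used.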

Additional observations from a re-analysis of the deposited data

How the results depend on the processing

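The higher share of the V, INT, δ and Jα intervals in DP thymocytes, the higher share of both downstream intervals in liver, the share upstream of the bait at each matched distance with a value, and the share of pairs within a single bin kept their direction under the pair filters, the limit of 500 kb, the replicate block and with each library left out. Other denominators turned some of them: of fragments from *Trav1* to the bait, DP minus liver was -21.1 percentage points for distal Jα and -6.69 for *Trac* to Eα, and of downstream fragments it was 4.53 for near downstream. No exact permutation test of 3 libraries against 2 can pass 0.05, so these alternatives bear on direction alone. The liver depth limits single elements: several rest on under 20 liver fragments, and elements at 0 there are bounded, not absent. DP reads outside the covered stretch were left out, as the liver counts do not reach there.

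Differences below are DP thymocytes minus liver, in percentage points, and the cause of each turn was not tested. With each distinct bin pair counted once, the difference became -1.17 from *Trac* to Eα, -0.58 for δ with δ, -3.08 within distal Jα, -1.55 for distal Jα with *Trac* to Eα, -0.31 for distal Jα with near downstream, -7.97 for pairs up to 25 kb apart, 3.37 for pairs with 1 fragment on each side, -0.24 at *Traj18* and -1.19 at *Trac*; the edgeR log2 ratios became -0.74 for δ with δ and -1.18 within distal Jα. The number of bin pairs at equal depth has no value under that setting. Without pairs within a single bin it became -0.50 from *Trac* to Eα, -1.64 for distal Jα with *Trac* to Eα, -0.32 for distal Jα with near downstream, 0.26 within *Trac* to Eα, -7.61 for pairs up to 25 kb apart, 0.59 for the 10 fullest bins and -0.65 at *Trac*. Without pairs within 10 kb of the bait it became 0.47 for distal Jα with far downstream, 0.34 for fragments up to 25 kb upstream and 3.84 for pairs with 1 fragment on each side. With each library left out, it ranged from -1.57 (without liver replicate 2) to 0.42 (without liver replicate 1) for distal Jα with far downstream, from -0.50 to 0.17 within *Trac* to Eα, from -0.98 to 0.16 for *Trac* to Eα with far downstream, and from -0.039 to 0.085 for the observed over expected ratio of pairs across the bait.

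Against 64 windows, 57 to 65 differed with TMM, DESeq2, no filter, distinct bin pairs or without single-bin or near-bait pairs, and 51 to 59 with a library left out. Of the 64, 51 were called again without single-bin pairs, 52 with TMM (51 in the same direction), 55 with distinct bin pairs, 57 without a filter, 61 without near-bait pairs, 63 with DESeq2 and 51 to 59 with a library left out. TMM gave 16 windows higher in liver. Windows of 10 kb gave 54 higher in DP thymocytes, and windows of 50 kb gave 29 calls, 16 higher in DP thymocytes and 13 in liver. Interval pairs higher in liver numbered 8 with distinct bin pairs, 6 without pairs within a single bin and 8 with TMM, under which distal Jα with distal Jα turned to a log2 ratio of -0.34, and 2 to 5 with a library left out (5 without liver replicate 2).

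The labels give both tissues replicate numbers 1 and 2. Deviations of same-numbered libraries from their group means correlated at -0.00068 and -0.086 over the 20 kb windows. The deviations of 2 liver libraries from their own mean are mirror images, so this check could not decide whether the numbers mark a pairing. With the replicate block, on 4 libraries, 37 windows differed, 20 higher in DP thymocytes and 17 in liver, and 25 interval pairs did; of the named V windows, those 565, 505 and 585 kb upstream had adjusted p of 0.0505, 0.0731 and 0.0978. The difference in the share upstream of the bait was 46.9 percentage points in this replicate block.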
